A study of Mus musculus with 8 samples.

Results

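Mouse proximal tubule cells in primary culture were compared, with and without the compound GW4064, for 9 genes that carry the committed steps of glucose production and the uptake of filtered glucose. The genes were G6pc, Pck1, Pck2, Pcx and Fbp1, which encode enzymes of gluconeogenesis, Slc37a4, which encodes the carrier that feeds G6pc, and Slc5a1, Slc5a2 and Slc2a2, which encode glucose transporters. Every probe whose transcript belonged to a listed gene was taken, which gave 1 probe for each of the 9 genes among 39429 probes and 20659 named genes on the array. All 9 genes were among the 14476 genes tested, and each of their probes was well above background on all 8 arrays and saturated on none.

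The cells came from the kidney cortex of male mice aged 6 weeks, with the strain given as C57/BJ. The tissue was digested with trypsin to a pellet made up mainly of tubules and grown to confluence. In serum-free DMEM, 4 samples then received the solvent DMSO and 4 received 1 uM GW4064, a synthetic activator of the bile acid receptor FXR, for 24 h. RNA of each sample was hybridised to a 1-colour Agilent expression array. Whether the samples of a group were grown from separate animals or cultures is not stated in the labels. The p-values therefore reflect the variation among these 8 samples alone, part or all of which may be technical.

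The proximal tubule is, beside the liver, the main site where new glucose is made, largely from glutamine and lactate. Pyruvate carboxylase (Pcx) turns pyruvate into oxaloacetate, and the phosphoenolpyruvate carboxykinases, in the cytosol (Pck1) and in mitochondria (Pck2), turn oxaloacetate into phosphoenolpyruvate. Fructose bisphosphatase (Fbp1) and, in the endoplasmic reticulum, the catalytic subunit of glucose-6-phosphatase (G6pc) take off the phosphates, the latter after the carrier encoded by Slc37a4 has brought glucose 6-phosphate in. The same cells take glucose back from the filtrate through the sodium-coupled carriers SGLT2 (Slc5a2), early in the tubule, and SGLT1 (Slc5a1), later in it, and pass glucose to the blood side through GLUT2 (Slc2a2).

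Between 61.4% and 65.7% of the probes on an array were well above background, and log2 signals correlated between arrays at 0.9915 to 0.9979. The 75th percentile of the signal, to which each array was scaled, was 1626 ± 187 (SD, n = 4) on the DMSO arrays and 1412 ± 207 (SD, n = 4) on the GW4064 arrays. The arrays lay on 2 slides, each with 2 arrays of either group. DMSO samples took places 1 and 2 and GW4064 samples places 3 and 4, so place on the slide and treatment cannot be told apart. Of the 33 markers of the proximal tubule, 29 passed the filter on dim probes. The probes of Slc22a8, Slc7a13, Slc9a3 and Dpep1 did not. Dpep1 was well above background on 0 DMSO and 3 GW4064 arrays, Slc22a8 on 0 and 2, and Slc7a13 and Slc9a3 on none. The liver markers Alb and Apoa1 were not well above background on any array.

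G6pc and Pck1 are the 2 of these genes whose transcription is best known, and G6pc rose with GW4064 whereas Pck1 did not pass the test. The 250 bases before each start site are therefore shown, from RefSeq on build GRCm38.p6. Capitals mark matches, searched on both strands, to a direct repeat of the kind bound by HNF4 (2 copies of AGNNCA with an A between them) and the core bound by CREB (TGACGT). The G6pc window is chr11:101367466-101367715 and the Pck1 window chr2:173152823-173153072, both on the plus strand.
G6pc: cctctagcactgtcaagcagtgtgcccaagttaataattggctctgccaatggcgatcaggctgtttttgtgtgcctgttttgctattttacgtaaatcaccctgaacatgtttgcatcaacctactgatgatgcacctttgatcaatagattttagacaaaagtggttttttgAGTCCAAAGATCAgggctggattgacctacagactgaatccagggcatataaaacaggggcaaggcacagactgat
Pck1: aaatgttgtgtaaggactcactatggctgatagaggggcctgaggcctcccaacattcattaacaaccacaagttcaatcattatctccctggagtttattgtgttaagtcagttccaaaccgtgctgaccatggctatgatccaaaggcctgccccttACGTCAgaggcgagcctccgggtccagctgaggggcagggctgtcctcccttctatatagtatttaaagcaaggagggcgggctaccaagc

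The HNF4-type repeat in the G6pc window begins at base -76, counted from the start site. The Pck1 window holds the CREB core on the reverse strand, beginning at base -91, and no match to the repeat. Among 32851 windows of this length, 0.6% held the HNF4-type repeat and 6.47% the CREB core. Of the 9 genes 8 had a window in the table, 11 windows in all, and Slc5a2 was not in it. G6pc was the only one of the 8 with the HNF4-type match, and Pck1 and Slc37a4 were the only ones with the CREB core. For Slc37a4 it was at -214 and at -61, each in a separate window and counted from that window's own start site. Whether these are the same bases seen from different starts was not examined. An inverted repeat of the kind bound by FXR (AGGNCA and its reverse complement with any 1 base between them) was in 0.0852% of all windows and in 0 of the 11, and the FOXO motif TGTTTAC in 3.17% and in 0. These matches are descriptions of the letters only. A site not found here may lie outside the windows, or inside them with letters that differ from those searched.

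With GW4064, 5 of the 9 genes rose and 0 fell (limma, Benjamini-Hochberg adjusted p under 0.05 over all 14476 genes). The 5 were G6pc, Pcx, Slc37a4, Slc5a1 and Slc5a2, and Pck1, Pck2, Fbp1 and Slc2a2 did not pass. At an unadjusted p under 0.05, 6 were higher, with Fbp1 added, and 0 lower. By limma p Fbp1 (0.0309) was rank 4222 of the 14476 genes, so at least 4222 genes pass this cut. With no filter on dim probes 3 of the 9 were called higher, without Slc5a1 and Slc5a2. With normexp background correction 1 was, Pcx, and Slc5a1 turned to -0.0867. On DMSO 3 a local background of 53526 entered that correction, and with marked local backgrounds replaced, a setting chosen after seeing the data, 5 were called again. Over all genes tested, 20.8% passed in either direction, 11.8% higher and 8.95% lower, against 5 of 9 here (55.6%). The median log2 fold change of the 9 genes was 0.46, and that of all genes 0.01. The 4 GW4064 arrays lay above all 4 DMSO arrays for the same 5 genes. Groups did not overlap for 26.2% of all genes, and for 15% with GW4064 above. In a fit over all probes kept, 15.4% passed, and the same 5 of the 9 genes were among them. In these bulk samples, a change in the RNA per cell and a change in how many cells of a type are present cannot be told apart.

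**Figure D1:**
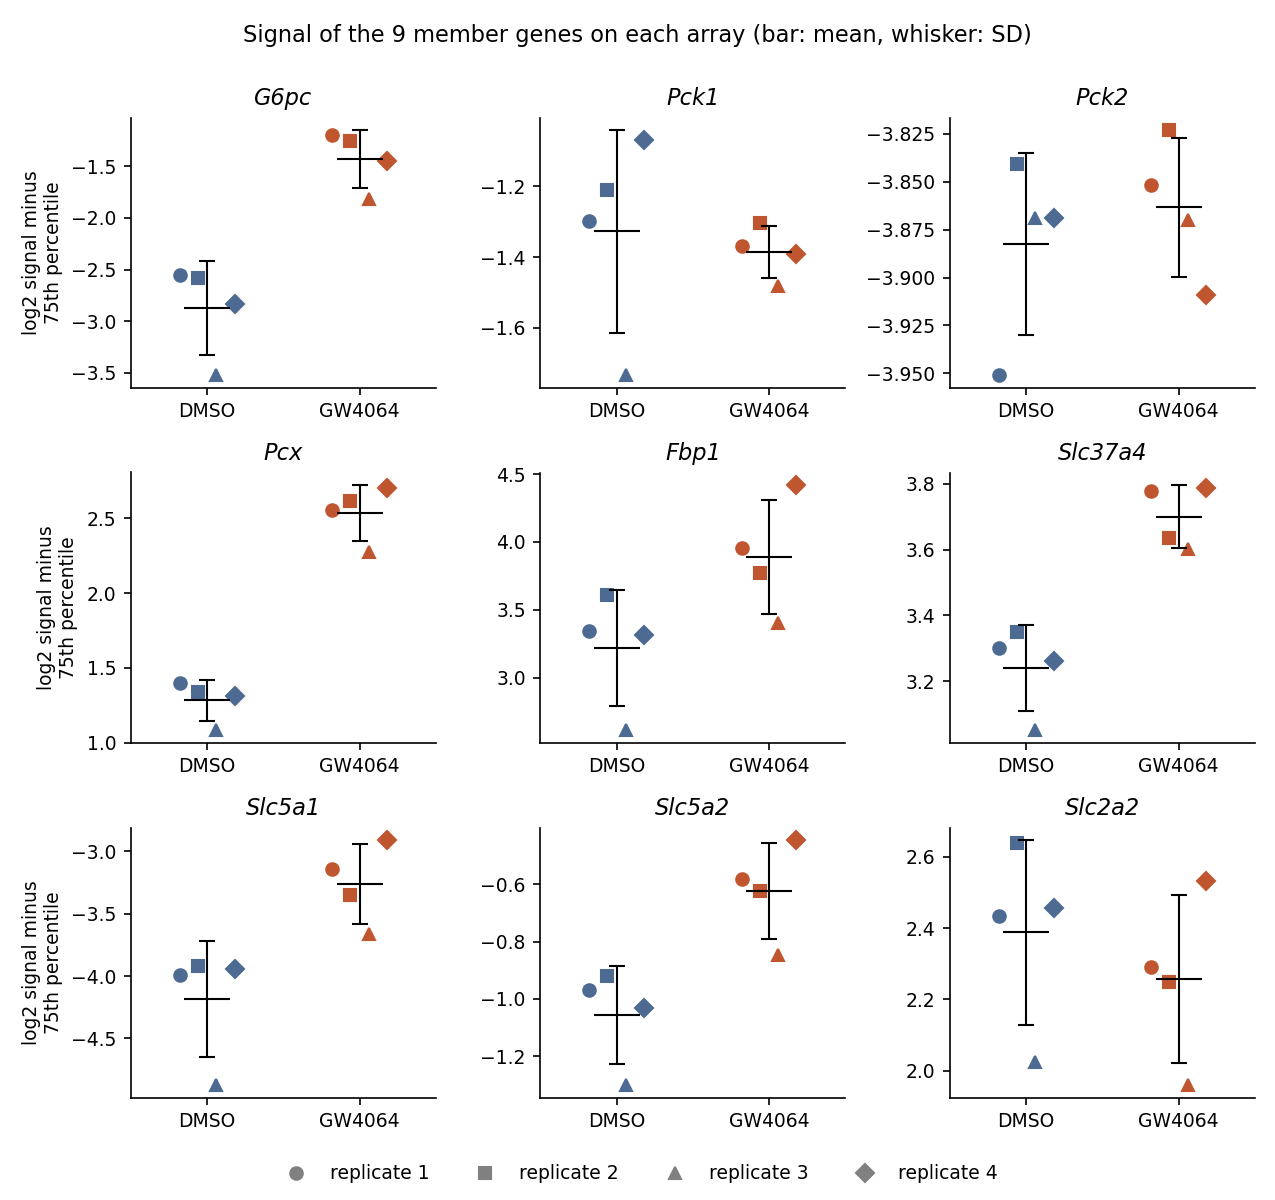
Signal of each of the 9 genes on every array, as log2 of the signal minus the array's 75th percentile (vertical axis, scaled separately in each panel), for 4 DMSO and 4 GW4064 arrays; symbols give the replicate number, the bar the mean and the whisker the SD. The groups are apart for G6pc, Pcx, Slc37a4, Slc5a1 and Slc5a2, and the array of replicate 3 is the lowest of its group in every panel but that of Pck2.

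At the entry to the pathway, Pcx rose 2.39-fold, while neither carboxykinase gene passed. All values by array are log2 signals in which 0 is the 75th percentile of that array. Pcx stood at 1.40, 1.34, 1.08 and 1.31 on DMSO arrays 1 to 4 and at 2.56, 2.62, 2.27 and 2.70 on GW4064 arrays 1 to 4. The lowest GW4064 array was thus well above the highest DMSO array. The log2 fold change was 1.25 ± 0.10 (SE, n = 4 per group; 95% interval 1.02 to 1.49; adjusted p = 0.000107), with 1.22 on slide 1 and 1.29 on slide 2.

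Pck1, the cytosolic carboxykinase that is commonly read as the index of gluconeogenic drive, stood at -1.30, -1.21, -1.73 and -1.07 with DMSO and at -1.37, -1.30, -1.48 and -1.39 with GW4064. The GW4064 arrays all fell inside the DMSO range, but DMSO 3 alone set its lower end. They lay below the other DMSO arrays, GW4064 2 only just (-1.303 against -1.298 on DMSO 1). Leaving out 1 array at a time, the log2 fold change of Pck1 ran from -0.19 (without DMSO 3, adjusted p = 0.0904) to 0.03 and never passed. Over all 8 arrays its log2 fold change was -0.06 ± 0.13 (SE, n = 4 per group, adjusted p = 0.787), with a 95% interval from -0.36 to 0.24. The difference was -0.08 on slide 1 and -0.03 on slide 2.

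Pck2, the mitochondrial form, was measured by 10 spots on each array, of which 1 was left out on DMSO 2 as an outlier. Its values were -3.95, -3.84, -3.87 and -3.87 with DMSO and -3.85, -3.82, -3.87 and -3.91 with GW4064, so the groups overlapped. Within an array the single spots varied with an SD of 0.08 to 0.14, and the array values, means of these spots, varied within a group with an SD of 0.05 for DMSO and 0.04 for GW4064. The log2 fold change was 0.02 ± 0.04 (SE, n = 4 per group; adjusted p = 0.766), with a 95% interval from -0.07 to 0.11. The Pck2 probe was dim, with a signal of 80.1 to 130 on the scanner's linear scale.

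For Fbp1, which removes a phosphate from fructose bisphosphate, the arrays stood at 3.35, 3.61, 2.61 and 3.31 with DMSO and at 3.96, 3.77, 3.40 and 4.42 with GW4064. On 3 of the 4 GW4064 arrays it was above all DMSO arrays, and GW4064 3 fell inside the DMSO range. The log2 fold change was 0.67 ± 0.26 (SE, n = 4 per group; 95% interval 0.08 to 1.26), and the adjusted p of 0.106 missed the threshold. Fbp1 had the widest interval of the 9 genes, and its difference was 0.39 on slide 1 and 0.95 on slide 2. With the replicate number as a block the same difference passed (adjusted p = 0.0435), although over all genes tested the numbers did not in general pair the samples.

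At the last step, both components of the glucose-6-phosphatase system rose. G6pc stood at -2.56, -2.58, -3.52 and -2.83 with DMSO and at -1.19, -1.25, -1.81 and -1.45 with GW4064. On the linear scale its signal was 135 to 267 on the DMSO arrays and 386 to 742 on the GW4064 arrays, with no overlap on either scale. It was 2.72-fold higher with GW4064 (log2 1.45 ± 0.23, SE, n = 4 per group; 95% interval 0.92 to 1.97; adjusted p = 0.00334). This was the largest change among the 9 genes and rank 86 among the rises of all 14476 genes, although with either form of normexp Pcx rose more (1.31 against 0.61 as planned, 1.23 against 1.18 with marked local backgrounds replaced).

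Slc37a4, the glucose 6-phosphate carrier of the endoplasmic reticulum, stood at 3.30, 3.35, 3.05 and 3.26 with DMSO and at 3.78, 3.63, 3.60 and 3.79 with GW4064. The groups did not overlap, and the rise was 1.38-fold (log2 0.46 ± 0.08, SE, n = 4 per group; adjusted p = 0.00393). The slides gave 1.34 and 1.54 for the log2 difference of G6pc and 0.38 and 0.54 for that of Slc37a4.

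The carriers that bring glucose in from the filtrate rose, and the one on the blood side did not pass. SGLT1, encoded by Slc5a1, stood at -3.99, -3.92, -4.88 and -3.95 with DMSO and at -3.14, -3.35, -3.66 and -2.91 with GW4064. DMSO 3 lay far under the other DMSO arrays, and every GW4064 array was above every DMSO array. The rise was 1.89-fold (log2 0.92 ± 0.24, SE, n = 4 per group; 95% interval 0.36 to 1.47; adjusted p = 0.0302). The probe was dim, at 52.8 to 123 on the linear scale with DMSO and 108 to 192 with GW4064.

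SGLT2, encoded by Slc5a2, takes up most of the filtered glucose in the kidney. Its values were -0.97, -0.92, -1.30 and -1.03 with DMSO and -0.58, -0.62, -0.85 and -0.45 with GW4064, again without overlap. The rise was 1.35-fold (log2 0.43 ± 0.11, SE, n = 4 per group; 95% interval 0.19 to 0.67; adjusted p = 0.0228).

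GLUT2, encoded by Slc2a2, is the low-affinity carrier of the blood side, by which glucose both reabsorbed and newly made leaves the cell. It stood at 2.43, 2.64, 2.02 and 2.46 with DMSO and at 2.29, 2.25, 1.96 and 2.53 with GW4064. The groups overlapped, with GW4064 3 below and the other GW4064 arrays inside the DMSO range. The log2 fold change was -0.13 ± 0.15 (SE, n = 4 per group; adjusted p = 0.585), with a 95% interval from -0.48 to 0.22, and it was -0.27 on slide 1 and 0.01 on slide 2.

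**Figure D2:**
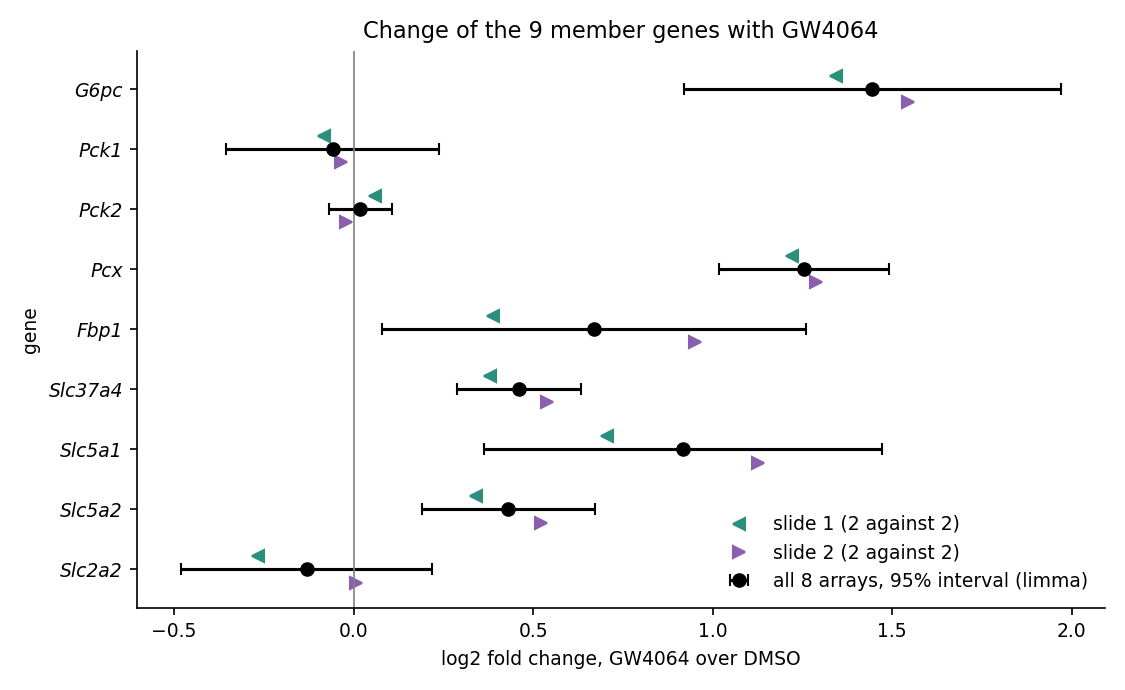
Log2 fold change of GW4064 over DMSO (horizontal axis) for each of the 9 genes (vertical axis), with the limma 95% interval over all 8 arrays (black) and the difference on each slide alone, 2 arrays against 2 (triangles). G6pc and Pcx lie farthest to the right, at 1.45 and 1.25, and the intervals of Pck1, Pck2 and Slc2a2 span 0.

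The calls of Slc5a1 and Slc5a2 depended on single arrays. Leaving out 1 array at a time, Pcx, G6pc and Slc37a4 passed every time, with adjusted p of at most 0.000757, 0.0128 and 0.0151. Slc5a1 missed the threshold without GW4064 1, 2 or 4 (adjusted p = 0.0773, 0.062 and 0.0703) and Slc5a2 without DMSO 4 or GW4064 1, 2 or 4 (adjusted p = 0.0522, 0.0613, 0.0549 and 0.0505). The count of genes called higher was then 4 without DMSO 4 and 3 without GW4064 1, 2 or 4. On slide 1 alone 4 of the 9 genes were called, and on slide 2 alone 0 (5 at an unadjusted limma p under 0.05), with differences on slide 2 of 1.54 for G6pc and 1.29 for Pcx. The share of all genes at that unadjusted cut was not counted, so nothing is read from the 5.

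Arrays of replicate 3 were low for these genes in both groups. DMSO 3 was the lowest of the 4 DMSO arrays for 8 of the 9 genes, and GW4064 3 the lowest of the 4 GW4064 arrays for the same 8, all but Pck2. Over all genes tested, DMSO 3 was the lowest in 24.9%, GW4064 3 in 24.9%, and both together in 10.2%. The proximal tubule markers were low on the same arrays, both together for 23 of 29 markers. The mean log2 signal of the 29 markers was 0.74 on DMSO 3, where the remaining DMSO arrays had 1.02 to 1.13, and 1.42 on GW4064 3 against 1.63 to 1.73 on the other GW4064 arrays. Their part in the values of the 9 genes was not tested. With both replicate 3 arrays left out, a check chosen after seeing the data, the same 5 genes were called. G6pc then rose by 1.36 on the log2 scale, Slc5a1 by 0.82 (adjusted p = 0.00544) and Slc5a2 by 0.42 (adjusted p = 0.00789). Fbp1 (adjusted p = 0.0615) and Pck1 (log2 fold change -0.16, adjusted p = 0.169) did not pass.

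**Figure D3:**
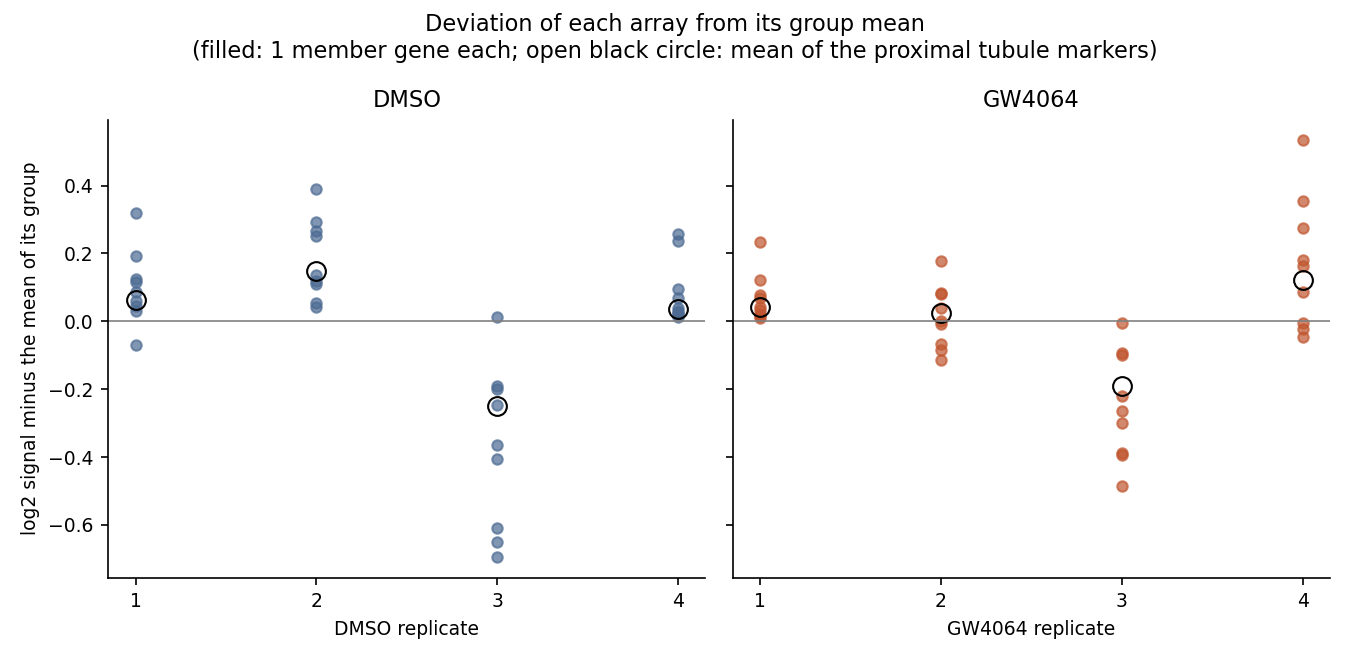
Deviation of each array from its group mean in log2 signal (vertical axis) by replicate number (horizontal axis), for the DMSO arrays (left) and the GW4064 arrays (right); filled points are the 9 genes and open circles the mean of the 29 proximal tubule markers. Nearly all points of replicate 3 lie under 0 in both groups, where the marker mean lies too.

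Enzymes that run a step toward glucose were set beside those that run the same step the other way, a grouping made after the values were seen. Of 8 genes of the gluconeogenic direction, 6 of them among the 9, 5 rose and 0 fell, with a median log2 fold change of 0.57. Beside Pcx, G6pc and Slc37a4 these were Fbp2, the muscle-type paralog of Fbp1, 1.98-fold higher (log2 0.98 ± 0.09, adjusted p = 0.000157), and G6pc3, the widely expressed paralog of G6pc, 1.13-fold higher (adjusted p = 0.0328). Of 9 genes of the glycolytic direction 1 rose and 4 fell, with a median of -0.26. Over all genes tested 11.8% rose and 8.95% fell, and since the grouping followed the values, nothing is read from its counts. Pfkp, the platelet-type phosphofructokinase, fell by 0.43 on the log2 scale (adjusted p = 0.00787), the muscle-type Pfkm by 0.19 (adjusted p = 0.0177), the pyruvate kinase Pkm by 0.32 (adjusted p = 0.0304) and the hexokinase Hk1 by 0.26 (adjusted p = 0.0169). The gene that rose was Hk3, a hexokinase of leukocytes, whose probe cleared the background on 0 of 4 DMSO arrays and on all GW4064 arrays. Hk3 thus passed the filter on dim probes through its GW4064 arrays alone. A lower bound put it at least 1.42-fold higher with GW4064. The adjusted p of 0.00339 (limma) comes from the fitted values and not from this bound. For this bound each DMSO array was given its weakest signal among probes that cleared the background, or the probe's own signal if that was higher. Pklr, the pyruvate kinase form of liver and proximal tubule, had a log2 fold change of 0.11 ± 0.08 (adjusted p = 0.381).

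**Figure D4:**
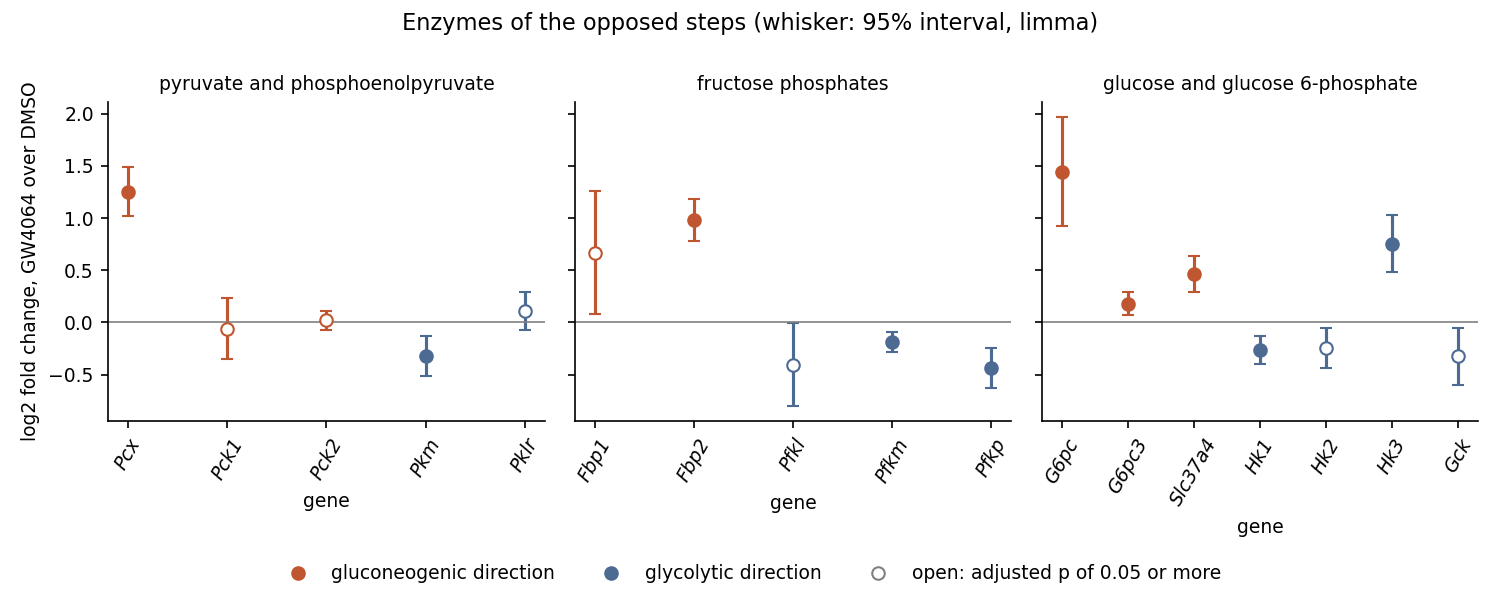
Log2 fold change of GW4064 over DMSO (vertical axis) with its 95% interval for genes of 3 opposed steps (panels), with genes of the gluconeogenic direction in orange and of the glycolytic direction in blue; open points did not pass. The filled orange points are above 0, and the filled blue points are below 0 except Hk3, whose plotted value is the fitted one and not the bound.

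In the longer list of glycolysis and pyruvate oxidation, 3 of 23 genes, Hk3 among them, rose and 6 fell, with a median log2 fold change of -0.04. Of the 4 enzymes that make or break fructose 2,6-bisphosphate, the switch between glycolysis and gluconeogenesis, 1 rose, 2 fell and 1 did not pass. Pfkfb4 rose 1.29-fold (adjusted p = 0.00149), while Pfkfb3 was 1.49-fold lower (adjusted p = 0.00187) and Pfkfb1 1.19-fold lower (adjusted p = 0.00492). Pfkfb2 had a log2 fold change of -0.01 (adjusted p = 0.966). Of 30 genes of substrate supply and of the reversible steps shared by both pathways 4 rose and 4 fell, with a median of -0.02, and without DMSO 1, 2 or 4 only 1 fell. The share that passed, 26.7%, was near the 20.8% of all genes. Slc25a10, the mitochondrial dicarboxylate carrier that exports malate, rose 1.40-fold (adjusted p = 0.000424). Gpt2, a mitochondrial alanine aminotransferase, rose 1.30-fold (adjusted p = 0.00428), and Gpd1, which draws on glycerol phosphate, 1.28-fold (adjusted p = 0.0123). Pgam1, a phosphoglycerate mutase of the shared steps, was 1.30-fold lower (adjusted p = 0.0148).

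Among the other carriers of the families of GLUT2 and the SGLTs, 5 of 18 tested rose and 3 fell, with a median log2 fold change of 0.21. Slc5a9 (SGLT4), a sodium-coupled carrier of mannose and related sugars, rose 1.71-fold (log2 0.78 ± 0.07, adjusted p = 0.000178), and the vitamin carrier Slc5a6 1.18-fold (adjusted p = 0.00502). The myo-inositol carrier Slc5a3 was 1.37-fold lower (adjusted p = 0.000983). Slc2a1 (GLUT1), the carrier of basal glucose uptake, was 1.43-fold lower (adjusted p = 0.00216). Its values were 3.34, 3.33, 3.05 and 3.37 with DMSO and 2.77, 2.73, 2.68 and 2.84 with GW4064, without overlap. Slc2a5, the fructose carrier, rose 1.71-fold (adjusted p = 0.00716) and was chosen after its values were seen.

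Of the regulators known to act on Pck1 and G6pc and of the paralogs, 8 of 29 tested rose and 5 fell, with a median log2 fold change of 0.03. Hnf4a, the nuclear receptor of liver, kidney and gut epithelium, rose 1.80-fold (log2 0.85 ± 0.04, adjusted p = 9.27e-06). Nr1h4, which encodes FXR itself, was 1.37-fold lower (adjusted p = 0.000302). Its values were 2.54, 2.47, 2.44 and 2.43 with DMSO and 2.04, 2.07, 1.92 and 2.03 with GW4064. The probe of Nr0b2, which encodes the repressor SHP, a known FXR target, cleared the background on 0 of 4 DMSO arrays and 1 of 4 GW4064 arrays and was not tested. Ppargc1a, the coactivator PGC-1alpha, chosen after its values were seen, was 1.55-fold lower (adjusted p = 0.00118).

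**Figure D5:**
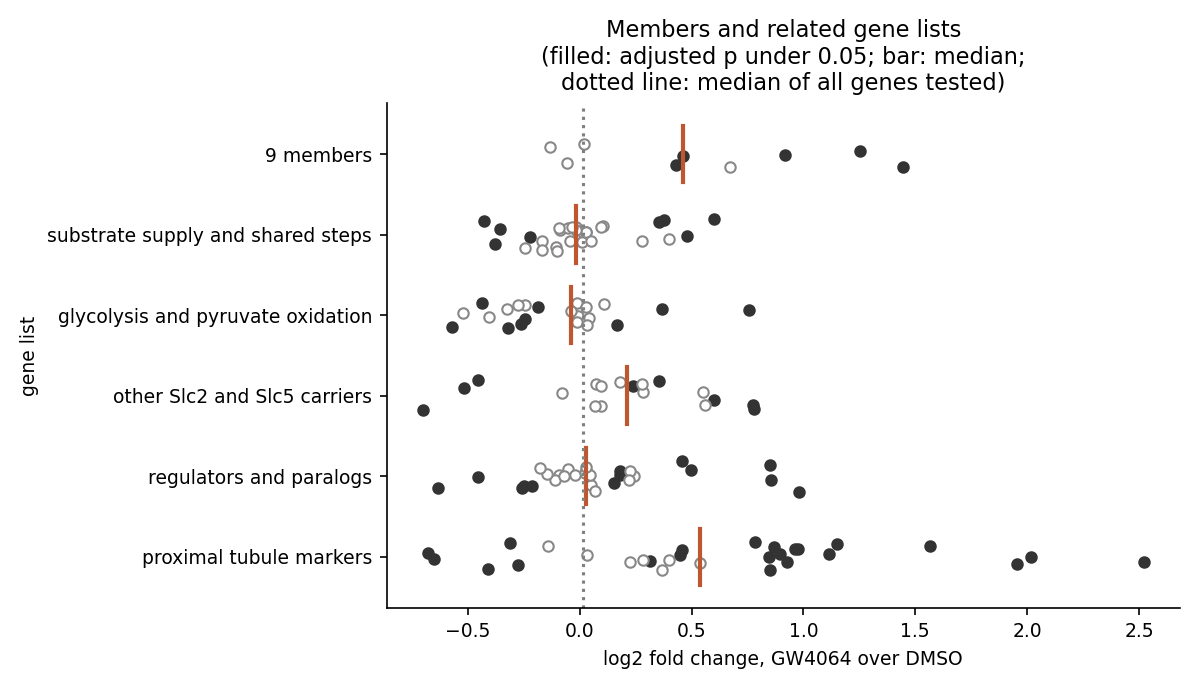
Log2 fold change of GW4064 over DMSO (horizontal axis) of each tested gene of the 9 and of 5 related lists (vertical axis); filled points passed an adjusted p of 0.05, orange bars are list medians and the dotted line is the median of all 14476 genes. The medians of the 9 genes (0.46) and of the proximal tubule markers (0.54) lie to the right of the others.

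Markers of the proximal tubule, none of them among the 9 genes, were mostly higher with GW4064. Of 29 tested 17 rose and 5 fell, with a median log2 fold change of 0.54. The sulfate carrier Slc13a1 rose 5.74-fold and Gatm, an enzyme of creatine synthesis, 3.87-fold. Kap, Acsm2, Fut9, Slc7a8 and Mme were the 5 called lower, with log2 fold changes of -0.68, -0.65, -0.41, -0.31 and -0.27. These 5 were picked for naming with their values already known. The mean log2 signal of the 29 markers was 0.74 to 1.13 on the DMSO arrays and 1.42 to 1.73 on the GW4064 arrays. Of 11 tested markers of other nephron segments and podocytes 4 fell (Umod, Kcnj1, Cldn16 and Slc12a3) and 0 rose (6 and 1 at an unadjusted p under 0.05), with a median of -0.32. Their mean signal was -2.70 to -2.61 with DMSO and -3.03 to -2.81 with GW4064, and Calb1 and Atp6v1b1 were not well above background on any array. Of the tubule markers 75.9% passed and of the other nephron and podocyte markers 36.4%, against 20.8% of all genes. For the unadjusted counts the share of all genes was not counted. The part of either marker list in the changes of the 9 genes was not tested.

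Some markers of cells outside the epithelium rose. Leukocyte markers rose for 4 of 10 genes and fell for 0, or 6 and 0 unadjusted (mean log2 signal -1.78 to -1.49 with DMSO and -1.53 to -1.38 with GW4064), with Csf1r 1.68-fold higher. Ptprc, the common leukocyte antigen, did not pass (adjusted p = 0.279) and was chosen after its values were seen. It stood at -1.53 on DMSO 4 against -4.10 to -4.01 on the other DMSO arrays. The GW4064 arrays, at -4.39 to -4.18, lay below all DMSO arrays, and the log2 fold change of Ptprc was -0.90 ± 0.54 (SE). DMSO 4 also held the highest mean of the leukocyte list among the DMSO arrays (-1.49). Endothelial markers rose for 2 of 7 and fell for 0, or 4 and 1 unadjusted (-1.86 to -1.66 and -1.64 to -1.51). Fibroblast and pericyte markers rose for 3 of 8 and fell for 0, also 4 and 1 unadjusted (-0.17 to 0.09 and 0.12 to 0.26). Of all genes tested 20.8% passed, against 40% of the leukocyte, 28.6% of the endothelial and 37.5% of the fibroblast and pericyte markers. The endothelial share was thus near that of all genes. For the unadjusted counts the share of all genes was not counted. Tek and Lum, in these lists, were not well above background on any array, and the hepatocyte markers Ttr and Tat did not pass. The part of these cells in the changes of the 9 genes was not tested.

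For each of the 5 genes that rose, the 3 genes with the most similar course over the 8 arrays were taken by the root mean square difference of log2 values, after the mean of the DMSO arrays was subtracted from each. The closest to G6pc were Acsm1 (0.17), Fam25c (0.18) and Rnf152 (0.21). For Pcx they were Slc6a13 (0.06), Acot4 (0.09) and Glyctk (0.09), and for Slc37a4 they were Srr, Tmem106a and Lrpap1 (0.05, 0.05 and 0.06). Slc5a1 ran closest to Miox (0.09), which makes glucuronate from inositol, and to the apical carriers Slc3a1 (0.14) and Slc13a3 (0.16), all 3 of them on the proximal tubule list. Slc5a2 ran closest to Pank1, Erich4 and Paqr9 (0.04, 0.05 and 0.06).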

How the data were processed

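The deposited scanner files hold spot intensity from which Agilent Feature Extraction (per the file headers version 10.7.3.1, in the submitters' processing notes 10.7, with limma) had subtracted the background. The authors also deposited log2 values, without stating how they were scaled, and these served as an alternative. Their sorted columns differed by at most 0.02, as after quantile normalization, so this alternative and quantile normalization are nearly the same check. Each column had a median of 6.6 and followed its own array (r of at least 0.99962) more closely than any other array (at most 0.99353), so no gene centring was seen.

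Control and outlier spots were left out, and spots of a probe were averaged. From the log2 processed signal of a probe the 75th percentile of its array was subtracted. A probe had to be well above background on at least 4 of 8 arrays, and the brightest probe stood for a gene. Accessions were named through the GRCm38.p6 gene table (69.1% of probes), and the headers name mm9, so genes carry no coordinates. The comparison of groups used R 4.3.3 and limma 3.58.1 (lmFit, eBayes, Benjamini-Hochberg, threshold 0.05, no covariate), tested on simulated data. The number of arrays limits precision.

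The 9 genes and all lists were chosen with earlier results of these data known. Genes named are the 9, up to 4 of each list with the smallest p among those called, the 3 nearest profiles of each called gene, markers and regulators at or below background or not passing that a list's account needs, and those marked in the text as picked with their values known. Of the genes so chosen, 1 is not reported here. Alternatives changed background correction, scaling, filter, probe choice, blocks, slides, weights, variance model, values and arrays. The files hold median spot signals, so normexp, planned on means, was run on medians. Over all genes tested, replicate numbers did not in general pair the samples: deviations of equal numbers correlated at -0.131, -0.0286, 0.192 and -0.022. For 8 of the 9 genes, though, both replicate 3 arrays were the lowest of their group.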

Additional observations from a re-analysis of the deposited data

Results flagged for a closer look

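The 66 groups of 4 arrays examined were those of the 9 genes and of some genes named from the lists. In 5 groups (7.58%) the gap of 1 array to its nearest other array was a large share of the group's range. That share was over the 95% critical value of Dixon's test, which chance passes in about 5%. Slc5a1 stood at -4.88 on DMSO 3, against -3.99 to -3.92 on the other DMSO arrays. Leaving that array out, the rise of Slc5a1 was 0.69 on the log2 scale. DMSO 3 was also apart for Fbp2 (-2.26, others -2.00 to -1.98), Slc2a1 (3.05, others 3.33 to 3.37) and Slc5a3 (-1.10, others -0.94 to -0.92), each time on the low side. For Slc2a1 and Slc5a3, which were lower with GW4064, this put DMSO 3 nearer to the GW4064 arrays. GW4064 3 was apart for Ass1, at 4.85 against 5.03 to 5.05.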

How the results depend on the processing

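Under quantile normalization, median centring, a filter requiring all 8 arrays, averaged probes per gene, array weights, the trended robust fit and the deposited log2 table, the same directions and calls were found for G6pc, Pcx, Slc37a4, Slc5a1 and Slc5a2, and every count stayed within 1.5 times its value.

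With no filter on dim probes, 3 of the 9 genes were called: Slc5a1 (0.92, adjusted p = 0.0662) and Slc5a2 (0.43, adjusted p = 0.0515) were lost, with more genes tested, and substrate supply had 2 genes lower. With a replicate block Fbp1 (0.67, adjusted p = 0.0435) was added, which gave 6 of the 9. The adjusted p of Slc5a1 was then 0.00727 and that of Slc5a2 0.00999. Only replicate 3 correlated best with its own number, and no call of the 9 genes was lost. A slide block left 2 substrate supply genes lower.

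Slide 1 alone, with fewer arrays, called 607 genes higher and 358 lower and lost Slc37a4 (0.38, adjusted p = 0.0655); glycolysis had 1 gene higher, the other carriers 3 higher, the regulators 5 higher and 1 lower, and the tubule markers 1 lower. Slide 2 alone called 168 higher and 52 lower and 0 of the 9 genes: G6pc 1.54 (adjusted p = 0.0856), Pcx 1.29 (0.0554), Slc37a4 0.54 (0.125), Slc5a1 1.13 (0.275) and Slc5a2 0.52 (0.249). There glycolysis and the regulators had 1 gene higher each and 0 lower, the tubule markers 7 higher and 0 lower, and substrate supply and the other carriers 0 in either direction.

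Planned normexp called 80 genes higher and 40 lower and 1 of the 9 genes, Pcx. G6pc was at 0.61 (adjusted p = 0.699), Slc37a4 at 0.59 (0.391), Slc5a2 at 0.22 (0.699), and Slc5a1 reversed to -0.0867 (0.929). Substrate supply and glycolysis had 0 called genes in either direction, the other carriers 0 higher and 1 lower, the regulators 1 higher and 0 lower, the tubule markers 9 higher and 0 lower. On DMSO 3 a local background reached 53526 against a median of 30, and Slc5a1 read -0.94 there under normexp against -3.32 to -3.24 on the other DMSO arrays. With marked local backgrounds replaced, an alternative chosen after seeing the data, 5 of the 9 genes were called, and glycolysis had 1 gene higher. Without both replicate 3 arrays, also chosen after seeing the data, the regulators had 5 higher.

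Leaving out 1 array at a time gave 3 to 5 of the 9 genes called, 0.69 to 1.05 for Slc5a1 and 0.35 to 0.50 for Slc5a2. It gave 1 to 5 substrate supply genes lower (1 without DMSO 1, 2 or 4, 2 without GW4064 1, 2 or 3), 3 to 6 regulators lower (3 without DMSO 4 or GW4064 3) and 3 to 5 tubule markers lower (3 without DMSO 4 or GW4064 1). Except where a value is given, the cause of these differences was not tested.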
